A study of Mus musculus with 12 samples.

Results

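Spleen and axillary lymph node were compared in mice that lack both apoA-I and apoE (DKO), through 3 RNA sequencing libraries of each organ. These are the 6 of 12 libraries of the study whose labels read DKO. They were taken from the deposited count tables of both organs, joined by gene symbol, and all genes were compared as spleen minus node. The other 6 libraries, 3 of each organ, came from DKO mice that also overexpress human apoA-I (DKO/hA-I), and serve here only to ask where the organ difference depended on the genotype as labelled. Every mouse therefore lacked the mouse proteins, including the DKO/hA-I animals, was 30 weeks old and ate a normal laboratory diet. The sources used here do not give the promoter of the human transgene or the background strain. Each library carries its own animal code, and the codes of the organs differ, so spleens and nodes were treated as unpaired. The labels do not say whether nodes were pooled within an animal, and p-values measure only the spread between these libraries. Each organ has its own deposited table, so organ and any difference in preparation or counting between the tables cannot be told apart.

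ApoA-I is the main protein of high density lipoprotein, which accepts cholesterol from cells, and apoE is the ligand by which remnant lipoproteins are taken up by receptors. Without them, cholesterol-rich particles remain in the circulation, and macrophages that take up more cholesterol than they can export become foam cells. The spleen filters blood: its red pulp holds macrophages that break down old red cells, and in the mouse it also makes red cells and platelets. A lymph node filters lymph drained from skin and surrounding tissue, and lymphocytes enter it from the blood through high endothelial venules.

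The DKO libraries held 5911835 to 11950825 counts, the lowest in node replicate 2 and the highest in node replicate 3. Log expression correlated at 0.974 to 0.990 among the spleens, 0.957 to 0.989 among the nodes and 0.878 to 0.919 between organs (Pearson r over genes, which do not count as replicates). Node replicate 2 stood apart from the other nodes, with r of 0.957 and 0.959 against 0.989 between the others. CPM are counts scaled to 1e6 per library, with TMM factors for single genes and by library totals alone for list sums. Its summed level of the plasma cell marker list, in node replicate 2, was 23499 CPM against 2524 and 3518 in the other nodes. A large part of that sum came from 1 listed gene, Slpi, at 11007 CPM (with TMM factors) in that library. The sum of the lipid-laden macrophage list there was 8996 against 19358 and 24638. Heat shock genes varied among spleens, with Hspa1a at 134, 4.87 and 63.8 CPM in the spleens and 9.63, 3.85 and 8.53 in the nodes. Mouse Apoa1 had 27 counts over the spleens and 9 over the nodes, and Apoe 339 and 447. The ribosomal pseudogene Rpl31-ps12 went against the genotype labels across organs: it had 5 counts over the spleens labelled DKO and 2162 over those labelled DKO/hA-I, but 2094 over the DKO nodes and 3 over the DKO/hA-I nodes. Whether the genotype labels of one organ are exchanged was not tested. All comparisons were therefore repeated with the spleens labelled DKO/hA-I in place of those labelled DKO, and counts with those spleens are given for the main lists. This repeat covers exchanged spleen labels only. Spleens labelled DKO were not tested against nodes labelled DKO/hA-I, the comparison that exchanged node labels would call for.

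Of 14107 genes tested, 2204 (15.62%) differed between the organs at an adjusted p under 0.05 (edgeR quasi-likelihood test, Benjamini-Hochberg). Spleen was higher for 1165 genes (8.26%) and node for 1039 (7.37%), and 1639 of the 2204 differed at least 2-fold. The groups did not overlap for 4637 genes (32.9%), in either direction. With the spleens labelled DKO/hA-I, 2401 genes differed, and 1939 did so with both sets of spleens in the same direction, which is 87.98% of the first set and 80.76% of the second. The count was 3767 without node replicate 2, 1468 without node replicate 3, 1359 without spleen replicate 2 and 1306 without spleen replicate 3. In bulk tissue, a lower level from fewer cells of a type and from less RNA per cell cannot be told apart. Throughout, log2 fold changes are spleen minus node, with the standard error. The shares of 8.26% in spleen and 7.37% in node are the background for every list count between organs below.

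**Figure D1:**
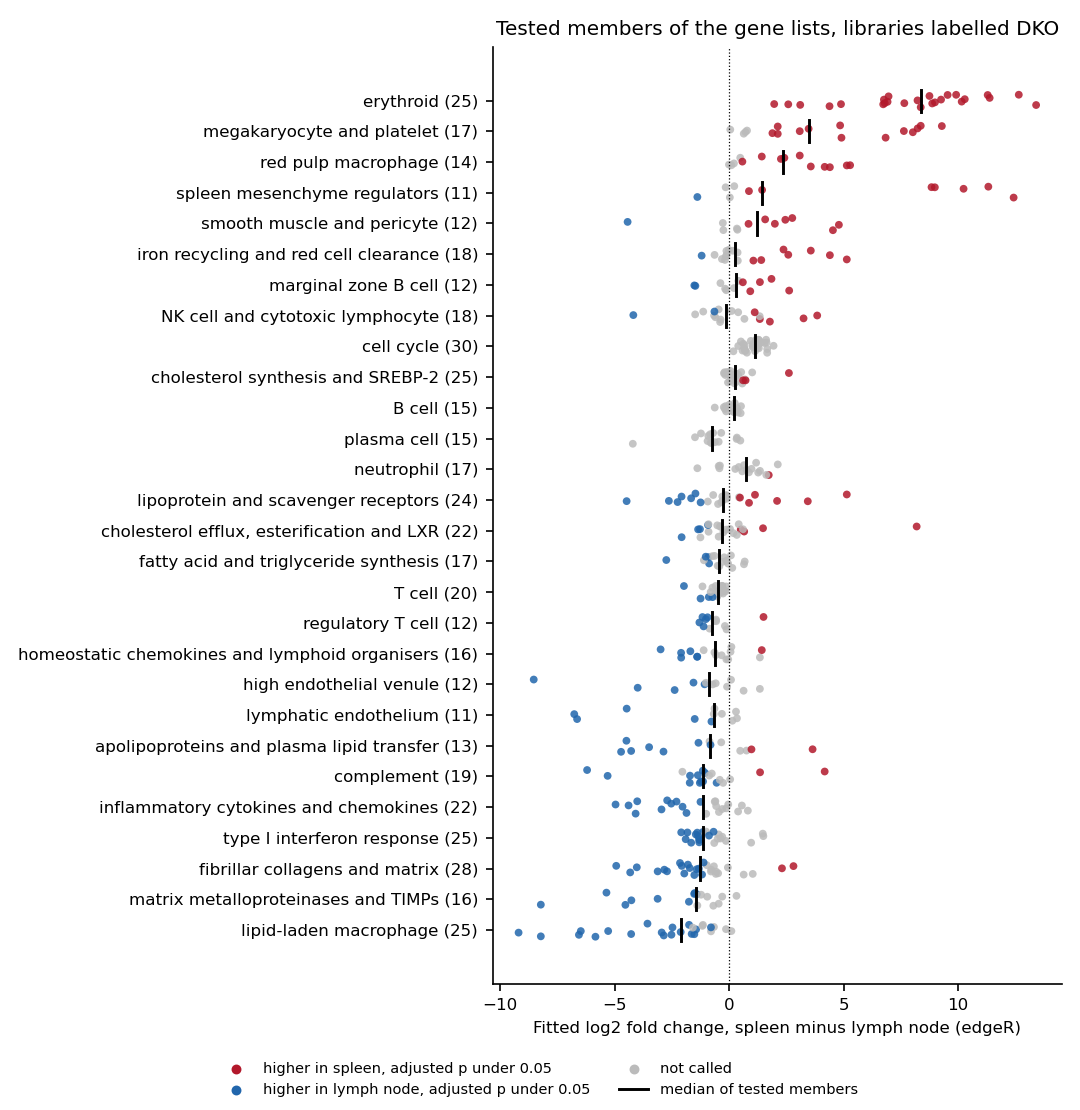
Each point is 1 tested member of a gene list, with its fitted log2 fold change (spleen minus node, x axis) in the libraries labelled DKO; red points were higher in spleen and blue points higher in node at an adjusted p under 0.05, grey points were not called, the black bar is the median and the number in brackets is the members tested. All 25 erythroid genes lie to the right, and 18 of 25 lipid-laden macrophage genes are blue.

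The largest fitted differences towards spleen were led by red cell genes. Kel, the Kell blood group protein, had 56.5, 198 and 158 CPM in the spleens and no count in any node, at least 1369-fold higher against a floor of 3 counts over the node group. Slc4a1, the band 3 anion exchanger of the red cell membrane, was at 686, 2936 and 2069 CPM in spleen and 0.0867, 1.0 and 0.0844 in node (log2 fold change 12.65 ± 0.95, adjusted p = 0.000202). Car1, a carbonic anhydrase of red cells, differed by a count ratio of 5202 (95% exact interval 933 to 205510). These genes were detected at trace level or not at all in node, while spleen replicate 1 was the lowest of the spleens for all 3. Of the genes called higher in spleen, 33 had no count in any node.

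Towards node, genes with the largest differences included homeobox and T-box factors, matrix proteins and macrophage genes. Cxcl14, a chemokine made by stroma and epithelium, had 12.8, 12 and 31.2 CPM in the nodes and no count in the spleens, at least 200.3-fold. The homeobox gene Hoxd9 (at least 82.6-fold) and the tight junction gene Cldn11 (at least 64.6-fold) also had no spleen count. Meox2, a homeobox factor of mesoderm and endothelium, was at 27.9, 25.7 and 32.3 CPM in node with a count ratio of 292 (95% exact interval 99.5 to 1417), and the T-box factor Tbx15 at 5.98, 4.85 and 6.5 CPM with 178 (95% exact interval 31.6 to 7090). Vtn, the adhesive plasma protein vitronectin, differed by a ratio of 173 (95% exact interval 58.8 to 840.3), with nodes at 17.9, 13.9 and 18.5 CPM. These 3 genes were even among nodes, whereas Sfrp5, a secreted Wnt antagonist, was at 56.2, 2.68 and 40.5 CPM and Dcstamp, which acts in the fusion of macrophages into giant cells, at 25, 1.5 and 30.5 CPM, low in node replicate 2 each time. The call of Dcstamp (adjusted p = 0.00841) was lost without spleen replicate 1. In all, 13 genes called higher in node had no count in any spleen.

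The erythroid programme was held by the spleen. All 25 of 25 tested markers were called higher there, against 8.26% of all genes, with a median log2 fold change of 8.37 against 0.0141 over all genes tested. Trim10, a ubiquitin ligase of terminal erythroid cells, was at 74.3, 324 and 244 CPM in spleen, a count ratio of 3206 (95% exact interval 887 to 26474), and the spectrin gene Spna1 stood at 83.4, 337 and 267 CPM against 0.173, 0.167 and 0.169 (log2 10.29 ± 0.78). Tfrc, the transferrin receptor, which other dividing cells use too, was at 223, 545 and 498 CPM in spleen and 56, 91.8 and 63.7 in node (log2 2.59 ± 0.36, adjusted p = 0.00273). The groups did not overlap for any of the 25. Summed over the list, the spleens held 14369, 59518 and 38207 CPM and the nodes 367, 405 and 291 CPM, with spleen replicate 1 the lowest spleen and no overlap between organs. Haemoglobin genes took 1.14%, 4.98% and 3.06% of spleen counts and 0.0040% to 0.0112% of node counts, and near-identical globin copies may share reads. With the spleens labelled DKO/hA-I the count was 25.

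Promoters from RefSeq (GRCm38.p6, from 250 bases before to 50 bases after the start site) were searched on both strands for AGATAA, the core bound by GATA factors, because GATA1 drives red cell genes. Of the 25 called erythroid genes, 18 had a promoter in the table and 9 of these (50%) held the motif, against 12.7% of all 27025 promoters and 8.18% of the 11087 promoters of tested genes. A match describes the letters and shows no binding. Examples are printed 5′ to 3′ on the gene's strand with the match in capitals, and Alas2, the first enzyme of haem synthesis in red cells, is shown for its sequence.
Kel (chr6:41704331-41704426, - strand): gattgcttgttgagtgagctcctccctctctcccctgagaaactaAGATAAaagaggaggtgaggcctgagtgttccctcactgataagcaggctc
Trim10 (chr17:36869366-36869461, + strand): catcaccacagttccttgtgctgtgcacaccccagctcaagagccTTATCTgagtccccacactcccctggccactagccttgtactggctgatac
Alas2 (chrX:150547286-150547381, + strand): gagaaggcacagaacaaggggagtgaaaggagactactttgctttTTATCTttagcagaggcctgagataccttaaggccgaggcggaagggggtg

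Megakaryocyte and platelet genes followed, with 13 of 17 called higher in spleen and none in node (median log2 3.47). Ppbp, a platelet granule chemokine, was at 214, 211 and 109 CPM in the spleens and 0.0867, 1.34 and 0.507 in the nodes (log2 8.37 ± 0.58, adjusted p = 0.000161). Gp6, the platelet collagen receptor, had 5.36, 4.01 and 2.08 CPM in spleen and no node count, at least 36.6-fold higher. Tubb1, the platelet tubulin, stood at 41.8, 43.9 and 23.1 CPM against 0.0867, 0.167 and 0.253 (log2 7.63 ± 0.45). Spleen replicate 3 was the lowest spleen for these 3 genes, whereas replicate 1 was the lowest for the red cell genes above. Members that endothelium and other cells also make were not called, among them Vwf at 76.5, 97.2 and 53.7 CPM against 55.2, 39.3 and 50.8 and Thbs1 at 155, 124 and 73 against 93.3, 110.2 and 136.

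Red pulp macrophages, which clear old red cells and return their iron, were marked in spleen: 10 of 14 markers were called there and none in node (median log2 2.34). Itgad, the integrin chain that marks these cells, was at 254, 262 and 252 CPM in the spleens and 3.04, 12.4 and 5.4 in the nodes (log2 5.29 ± 0.46, adjusted p = 0.000336). Cd163, the receptor for haemoglobin bound to haptoglobin, stood at 137, 106 and 111 CPM against 1.13, 7.86 and 2.28 (log2 5.14 ± 0.58). The spleens were even while node replicate 2 held the highest node value of both genes. Mertk, a receptor for dying cells that other macrophages share, was not called at 149, 122 and 133 against 142, 93.3 and 169 CPM. Its relative Axl was not called either, at 630.1, 577 and 633 against 437, 301 and 573 CPM. Cd5l, which the list of lipid-laden macrophages also holds, was at 519.9, 677 and 603 against 496, 511 and 669.6 CPM, with overlapping groups.

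Iron recycling genes differed from step to step. Hmox1, which opens the haem ring, was at 743, 830.1 and 855 CPM in spleen and 63, 61 and 80.3 in node (log2 3.57 ± 0.17, adjusted p = 3.34e-05), and Slc40a1, the iron exporter ferroportin, at 843, 668 and 736 against 28.5, 49.5 and 29 (log2 4.40 ± 0.26). Storage was not called: the ferritin heavy chain Fth1 stood at 1218, 1774 and 1539 CPM against 2158, 1270 and 2193, and the light chain Ftl1 at 2175, 2155 and 2320 against 2814, 1643 and 3073. The ferroxidase Cp, ceruloplasmin, ran the other way at 92.4, 56.7 and 83.2 against 139, 217 and 177 CPM (log2 -1.20 ± 0.23, adjusted p = 0.00934). In all, 7 of 18 members were higher in spleen and 1 in node, and the latter count was 4 without node replicate 2.

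Of the 12 listed transcription factors of the spleen's mesenchyme, 4 had no count in any node, while the list summed to 289, 202 and 235 CPM in the spleens and 74.5, 65.6 and 77.4 in the nodes. Tcf21 (chromosome 10, 22817263 to 22820143, GRCm38.p6), needed for the spleen to form, was at 87, 60.5 and 61.6 CPM with no node count, at least 671-fold higher. Tlx1, the homeobox gene without which mice lack a spleen, was at 30.6, 34.8 and 31.9 CPM (at least 316-fold), Nkx2-3 at 14.8, 16 and 15.2 CPM (at least 149-fold) and Nkx2-5 at 6.01, 6.49 and 6.74 CPM (at least 62.4-fold). Outside the list, Nr5a1, a nuclear receptor that acts in the adrenal, the gonads and the spleen's vessels, had 33.3, 28.6 and 33.4 CPM and no node count (at least 308-fold). The spleens differed less from each other than from the nodes for all 5 genes. The list counted 7 of 11 members higher in spleen and 1 in node, the orphan receptor Nr2f1, whose call was lost without node replicate 3 or spleen replicate 2 or 3.

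The contractile part of the stroma also sat in spleen, with 7 of 12 smooth muscle and pericyte genes higher there. Smooth muscle actin Acta2 was at 107, 80.5 and 71.2 CPM against 22.7, 15.2 and 26.3 (log2 2.00 ± 0.24, adjusted p = 0.00114), and calponin Cnn1 at 7.87, 3.91 and 3.47 against 0.0867, 0.167 and 0.253 (log2 4.79 ± 0.56). Rgs5, a regulator of G protein signalling typical of pericytes, was the exception at 4.81, 2.86 and 5.55 CPM in spleen and 69.5, 100.5 and 115 in node (log2 -4.43 ± 0.30, adjusted p = 0.000105). Of the mesothelium, which covers the spleen's capsule, 5 markers were tested and 4 called higher in spleen, 2 without node replicate 1. Its defining marker Msln, mesothelin, was low and uneven at 2.95, 7.54 and 1.09 CPM, with a call lost without node replicate 1.

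**Figure D2:**
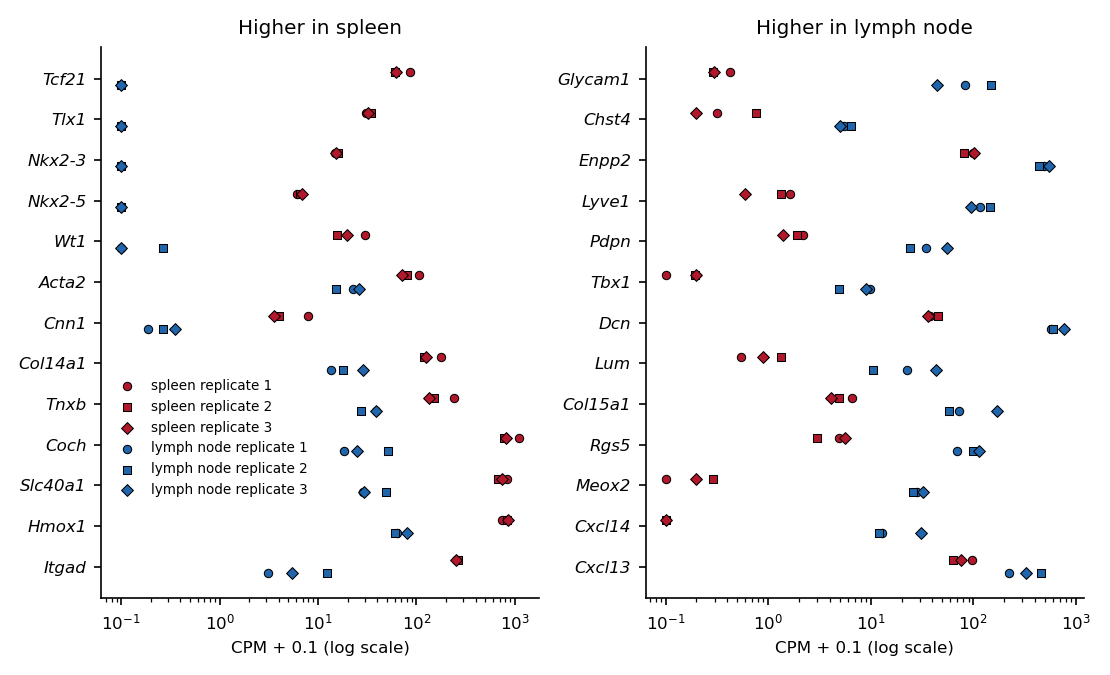
CPM plus 0.1 in each library on a log scale for stromal and red pulp genes, with those higher in spleen on the left and those higher in node on the right; red is spleen, blue is node, and the symbol gives the replicate. Points at 0.1 have no count, as for Tcf21, Tlx1, Nkx2-3 and Nkx2-5 in all nodes and for Cxcl14 in all spleens.

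Most genes of the macrophage programme of lipid loading were higher in node. Of 25 genes of lipid-laden macrophages, 18 were called higher in node and none in spleen, against 7.37% of all genes, with a median log2 of -2.11. With the spleens labelled DKO/hA-I the count was 20, and without node replicate 2, whose sum was the lowest of the nodes, it was 23. The list's sum was 19358, 8996 and 24638 CPM in the nodes and 5648, 5852 and 5777 CPM in the spleens, which did not overlap. With TMM factors over all 12 libraries, the sum ran from 8965 to 25970 CPM in the DKO nodes and from 5588 to 6201 in the DKO spleens. In the nodes labelled DKO/hA-I it ran from 4442 to 6118 CPM, so the higher sum in node rests on the node labels.

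Several surface and secreted markers of these cells were among the members that differed most. Gpnmb (chromosome 6, 49036518 to 49058182), a membrane glycoprotein of macrophages with loaded lysosomes, was at 0.875, 4.87 and 1.68 CPM in the spleens and 1994, 353 and 2074 in the nodes (log2 -9.19 ± 0.97, adjusted p = 0.000833). Trem2, a lipid-sensing receptor, was at 0.765, 1.62 and 0.892 CPM against 112, 21.6 and 163 (log2 -6.47 ± 0.83), while its adaptor Tyrobp, which most myeloid cells carry, was not called at 114, 171 and 146 against 248, 138 and 295. Spp1, the matrix protein osteopontin, stood at 2.84, 4.11 and 3.27 CPM against 152, 108 and 326 (log2 -5.83 ± 0.48, adjusted p = 0.000289), and the macrophage elastase Mmp12 at 4.81, 4.11 and 2.18 against 1256, 229.9 and 1812 (log2 -8.22 ± 0.88). Node replicate 2 was the lowest node for these genes and, apart from Tyrobp, still lay above every spleen.

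Lysosomal and lipid genes of the list differed too. Atp6v0d2, a subunit of the proton pump, was at 2.62, 1.43 and 1.78 CPM against 208, 50.8 and 286 (log2 -6.55 ± 0.72), and the protease Ctsk, cathepsin K, at 7.65, 5.92 and 5.25 against 317, 45.3 and 365 (log2 -5.28 ± 0.76). Cathepsin D, Ctsd, stood at 1022, 1185 and 1091 CPM against 3427, 1663 and 3845, a call lost without spleen replicate 2 or 3, and cathepsin B, Ctsb, at 2229, 2397 and 2306 against 4138, 2483 and 5342 was not called (adjusted p = 0.0792). Lpl, the lipase that frees fatty acids from lipoproteins, was at 76.5, 55.8 and 68.5 CPM in spleen and 1099, 479 and 2303 in node (log2 -4.27 ± 0.55, adjusted p = 0.00199). The lipid droplet coat protein Plin2 was at 77.5, 77.5 and 81.7 against 312, 147 and 335 CPM (log2 -1.75 ± 0.29). Lpl is an adipocyte gene too, and the adipocyte list was measured beside it.

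The motif TCACGTGA or TCATGTGA, an E-box bound by the MiT/TFE factors that drive lysosomal genes, was searched in the same promoters on both strands. Of the 18 called genes, 15 had a promoter and 3 of these (20%) held it, against 2.24% of all promoters and 3.07% of those of tested genes. They are Ctsd, Ctss and Mmp12, and the matches that lie before the start site are printed with the motif in capitals.
Ctsd (chr7:142387874-142387971, - strand): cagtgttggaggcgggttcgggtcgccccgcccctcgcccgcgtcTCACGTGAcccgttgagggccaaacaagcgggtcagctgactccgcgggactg
Mmp12 (chr9:7347245-7347342, + strand): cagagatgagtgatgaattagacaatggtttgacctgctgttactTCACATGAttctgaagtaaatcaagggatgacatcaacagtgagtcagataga

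**Figure D3:**
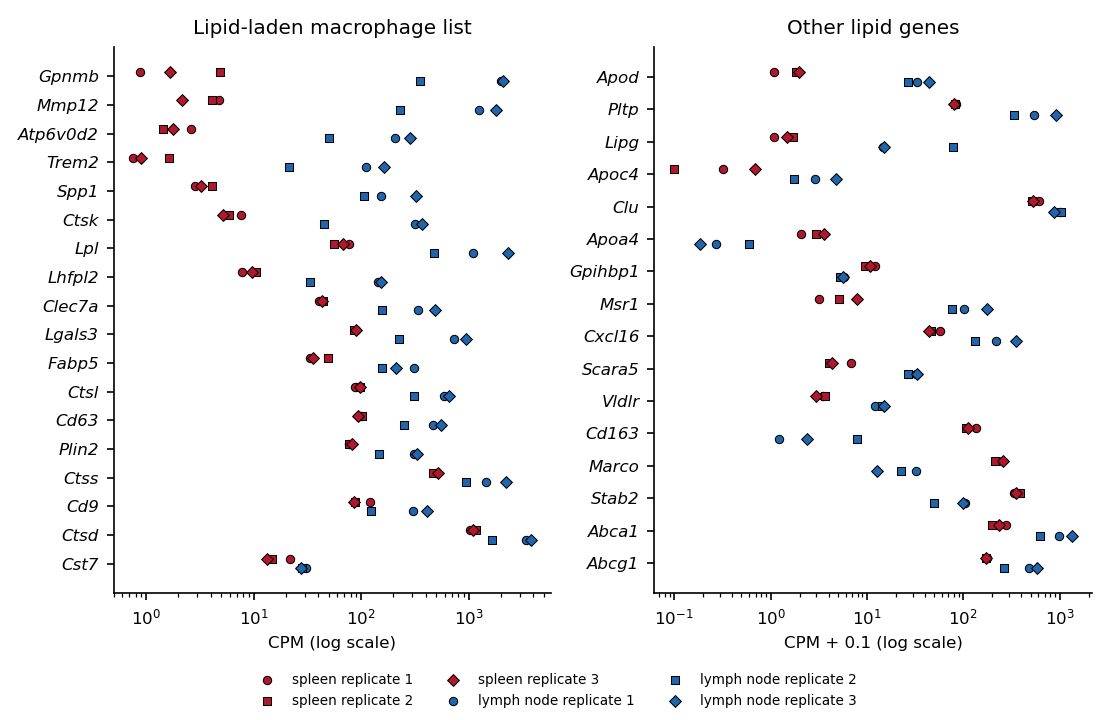
Levels in each library on a log scale, as CPM for the 18 called members of the lipid-laden macrophage list (left) and as CPM plus 0.1 for other lipid genes (right); red is spleen, blue is node, and circles, squares and diamonds are replicates 1, 2 and 3. Node replicate 2 is the lowest node for most genes on the left, as for Trem2 at 21.6 CPM.

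Apolipoproteins and lipid transfer proteins leaned towards node, with 7 of 13 tested members higher there and 2 in spleen. In the fit of all 12 libraries the list's median organ log2 was -0.86 in DKO and 0.17 in DKO/hA-I, so this lean rests on the node labels. Apod, a lipocalin apolipoprotein, was at 0.984, 1.72 and 1.88 CPM in spleen and 33.4, 26.6 and 43.6 in node (log2 -4.48 ± 0.30, adjusted p = 0.000101). Pltp, which transfers phospholipid onto high density lipoprotein, was at 83.5, 82.8 and 79.4 against 543, 337 and 906 (log2 -2.86 ± 0.34), and the chaperone apolipoprotein Clu at 618, 517 and 529 against 1006, 1025 and 884 (log2 -0.81 ± 0.14). Lipg, the endothelial lipase, stood at 0.984, 1.62 and 1.39 CPM against 14.6, 78.7 and 15 (log2 -4.71 ± 0.81), and here node replicate 2 was the highest library. Towards spleen went Apoa4, a minor apolipoprotein of high density lipoprotein, at 1.97, 2.86 and 3.47 CPM against 0.173, 0.502 and 0.0844 (log2 3.65 ± 0.54, adjusted p = 0.00282). Gpihbp1, which anchors Lpl to the capillary wall, did too at 12.1, 9.36 and 10.8 against 5.64, 5.18 and 5.49 (log2 0.98 ± 0.20, lost without spleen replicate 3), opposite to Lpl itself. The count of members higher in spleen was 1 without spleen replicate 3, and 1 with the spleens labelled DKO/hA-I. The remaining Apoe reads were not called between organs, at 8.09, 14.2 and 11.5 against 16.8, 8.53 and 17.1 CPM (adjusted p = 0.529).

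Receptors for lipoproteins divided between the organs: 6 of 24 were higher in spleen and 7 in node, and the latter count was 11 without node replicate 2. Marco, of marginal zone macrophages, was at 251, 216 and 258 CPM in spleen against 32.2, 22.2 and 12.5 (log2 3.44 ± 0.33, adjusted p = 0.000457), and Stab2, of sinus endothelium, at 336, 391 and 355 against 104, 49.7 and 98.3 (log2 2.10 ± 0.27). Msr1, the class A receptor through which foam cells take up modified lipoprotein, was at 3.06, 5.06 and 7.83 CPM in spleen and 103, 76.4 and 176 in node (log2 -4.47 ± 0.43, adjusted p = 0.000574). Cxcl16, a chemokine that also binds oxidised lipoprotein, was at 57.6, 46.2 and 44.3 against 217, 131 and 354 (log2 -2.25 ± 0.34). The fatty acid and lipoprotein receptor Cd36 was not called at 261, 217 and 247 against 517, 129 and 732 CPM, with node replicate 2 below and the other nodes above every spleen. Vldlr, an endocytic receptor for particles rich in triglyceride, was higher in node at 3.39, 3.53 and 2.87 CPM against 12.1, 14.2 and 15 (log2 -2.07 ± 0.21), and the remnant receptor Lrp1 was not called (adjusted p = 0.898).

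Both main cholesterol exporters were higher in node. Abca1, which loads lipid onto apoA-I, was at 275, 199.6 and 233 CPM in the spleens and 994, 628 and 1347 in the nodes (log2 -2.07 ± 0.28, adjusted p = 0.00191). Abcg1, which exports to mature high density lipoprotein, stood at 176, 174 and 173 against 486, 263 and 582 (log2 -1.35 ± 0.27), a call lost without spleen replicate 2. The groups did not overlap for either transporter. Abcg4 went to spleen at 12.8, 51.5 and 36.6 CPM against 0.0867, 0.167 and 0.0844, a count ratio of 335 (95% exact interval 114 to 1627). The liver X receptor gene Nr1h3 was not called, at 84.5, 88.8 and 82.9 CPM against 137, 92.6 and 136, and the lysosomal acid lipase Lipa missed the threshold (adjusted p = 0.0606). Of 22 members, 4 were higher in spleen and 4 in node. The node count was 8 with DESeq2, 9 without node replicate 2 and 1 without spleen replicate 2, and the spleen count 2 without node replicate 1, node replicate 3, spleen replicate 2 or spleen replicate 3. With the spleens labelled DKO/hA-I the spleen count was 2.

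Of 25 cholesterol synthesis genes, 3 were higher in spleen, a share close to the 8.26% over all genes, and none in node. Without node replicate 2, which stood highest among nodes for Sqle (4.86, 14.9 and 5.74 CPM) and Idi1 (12.6, 36.6 and 13.9 CPM), the count was 11, and without any one of the other libraries it was 1. For fatty acid and triglyceride synthesis, 4 of 17 genes were higher in node, against 7.37% of all genes, and 8 without node replicate 1 and 7 with DESeq2. The desaturase Scd1 was at 511, 338 and 428 CPM against 807, 758 and 828 (log2 -0.91 ± 0.17, adjusted p = 0.009), while the synthase Fasn was not called at 156, 159 and 147 against 138, 251 and 232.

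Adipocyte markers moved with these results. Of 14 tested markers, 6 were higher in node and 1 in spleen, the insulin-regulated glucose carrier Slc2a4, whose call was lost with limma voom and without node replicate 1, 2 or 3 or spleen replicate 2 or 3. The 21 listed markers summed to 1356, 776 and 2568 CPM in the nodes and 223, 236 and 225 in the spleens. Lpl made up most of the sum in each node. No listed marker was at 0 in every node, whereas Cidea and Adig were at 0 in every spleen. Fabp4, the fatty acid carrier of adipocytes, macrophages and endothelium, was at 3.72, 6.11 and 6.24 CPM against 51.2, 82.3 and 82.6 (log2 -3.74 ± 0.28, adjusted p = 0.000162). The hormone Adipoq, which only fat cells make, had 0.437, 0.859 and 0.0991 CPM in spleen and 1.47, 4.18 and 1.94 in node, and its call was lost without node replicate 1 or 3 or spleen replicate 1, 2 or 3. The part of fat tissue around the node in the lipid results was not tested.

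Matrix genes were higher in node for most fibrillar components. Of 28 tested, 16 were called in node and 2 in spleen (median log2 -1.25), with 16 in node with the other spleens and 9 without spleen replicate 2. In the fit of all 12 libraries the list's median organ log2 was -1.28 in DKO and 0.005 in DKO/hA-I, so this lean rests on the node labels. Dcn, the collagen-binding proteoglycan decorin, was at 37.7, 44.9 and 36.4 CPM in spleen and 574, 602 and 765 in node (log2 -4.03 ± 0.18, adjusted p = 3.34e-05). Its relative Lum, lumican, was at 0.437, 1.24 and 0.793 against 22.5, 10.5 and 43.5 (log2 -4.93 ± 0.62), and Col15a1, a collagen next to basement membranes, at 6.45, 4.77 and 3.96 against 72.1, 58 and 171 (log2 -4.32 ± 0.47). The main fibril collagen Col1a1 was not called at 115, 101 and 101 against 166, 134 and 322 CPM, and node replicate 3 was the highest library for Dcn, Lum, Col15a1 and Col1a1. The members higher in spleen were Col14a1, which binds fibril surfaces, at 177, 121 and 125 CPM against 13.5, 17.9 and 28.5 (log2 2.81 ± 0.30) and Tnxb, tenascin X, at 243, 149 and 135 against 39.2, 27.6 and 39.1 (log2 2.31 ± 0.26, adjusted p = 0.000831).

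Of the matrix proteases and their TIMP inhibitors, 9 of 16 were higher in node and none in spleen. Here too the median organ log2 in the fit of all 12 libraries was -1.48 in DKO and -0.12 in DKO/hA-I. Mmp3, stromelysin, was at 4.26, 7.92 and 12.4 CPM against 111, 217 and 241 (log2 -4.53 ± 0.45, adjusted p = 0.000648), and Mmp14, the membrane protease that activates others, at 66.2, 65.3 and 63.2 against 174, 136 and 239.6 (log2 -1.50 ± 0.21). Mmp13, collagenase of macrophages and cartilage, stood at 44.7, 5.68 and 70.7 CPM in the nodes and its call was lost without spleen replicate 1, 2 or 3. Timp2, an inhibitor of these enzymes, was not called at 261, 199 and 209.7 against 377, 210.2 and 489 CPM. Of the basement membrane genes, 5 of 14 were higher in node, and 8 without node replicate 2. They include the laminin chains Lamb1 at 9.62, 7.54 and 9.41 against 57.8, 67.5 and 83.2 CPM (log2 -2.97 ± 0.20) and Lama4 at 9.73, 6.11 and 6.93 against 48.6, 37 and 66.5 (log2 -2.74 ± 0.27).

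Some markers of the vessels proper to a lymph node were higher there. Glycam1, the mucin ligand of L-selectin on high endothelial venules, was at 0.328, 0.191 and 0.198 CPM in spleen and 82.4, 149.8 and 44 in node (log2 -8.53 ± 0.65, adjusted p = 0.000215), and Chst4, which sulphates that ligand, at 0.219, 0.668 and 0.0991 against 5.38, 6.35 and 4.9 (log2 -3.99 ± 0.48). Of 12 markers of these venules 5 were higher in node and none in spleen. Lyve1, the hyaluronan receptor of lymphatic vessels, was at 1.53, 1.24 and 0.495 CPM against 116, 145 and 94.1 (log2 -6.76 ± 0.34, adjusted p = 3.34e-05), and the T-box factor Tbx1 at 9.71, 4.85 and 8.87 CPM in node, a ratio of 125 (95% exact interval 34.4 to 1042). Prox1, the master factor of lymphatic endothelium, was also present in spleen, at 6.89, 9.93 and 7.83 CPM against 14.1, 13.7 and 14.2, and its call was lost without node replicate 1 or 3 or spleen replicate 1 or 3. In total 5 of 11 lymphatic markers were higher in node, and Flt4 at 43.6, 49 and 51.1 against 44.4, 37.1 and 48.2 CPM was not called.

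Fibroblastic reticular cells, which build the T cell zone and guide lymphocytes, had 6 of 13 markers higher in node and 1 in spleen, the elastic fibre gene Fbln5. The list's median organ log2 in the fit of all 12 libraries was -1.01 in DKO and -0.016 in DKO/hA-I. Pdpn, podoplanin, was at 2.08, 1.81 and 1.29 CPM against 34.3, 24.2 and 55.9 (log2 -4.47 ± 0.37, adjusted p = 0.000216) and Pdgfra at 60.9, 46 and 43.5 against 107, 92.5 and 138 (log2 -1.17 ± 0.20). Their T zone chemokine Ccl19 was not called at 129, 107 and 97 against 111, 101 and 98.5 CPM (adjusted p = 0.703), and its groups overlapped. The B cell zone chemokine Cxcl13 was at 97.1, 63.9 and 76.3 against 222, 463 and 329 (log2 -2.09 ± 0.28), higher in every node than in any spleen. Tnfsf11, the organiser cytokine RANKL, was at 7.0, 3.82 and 5.55 against 18.3, 17.6 and 16.8 (log2 -1.69 ± 0.24). Il33, an alarm cytokine of stroma, stood at 30.6, 18.4 and 20.1 CPM against 56.6, 124 and 114 (log2 -2.09 ± 0.33). Across homeostatic chemokines and lymphoid organisers, 6 of 16 were higher in node and 1 in spleen, Vcam1, the adhesion molecule that red pulp macrophages also carry. Of 11 follicular dendritic cell markers 4 were higher in spleen and 3 in node, among the latter Cxcl13 and Clu (median log2 -0.044). Coch, cochlin, of that list, was at 1113, 784 and 807 CPM in spleen and 18.5, 51.8 and 24.9 in node (log2 4.84 ± 0.42, adjusted p = 0.000336). Of 15 blood endothelial genes 3 were higher in node and 1 in spleen, with a median log2 of 0.11 and 9 positive against 6 negative values. The node count was 6 without node replicate 2 and 1 without spleen replicate 3. Towards spleen was Eng, at 187, 165 and 186 against 128, 93.3 and 125 CPM (log2 0.63 ± 0.16). Its call was lost without node replicate 3 or spleen replicate 1, 2 or 3. Towards node, the adhesion molecule Pecam1 was at 186, 156 and 154 against 291, 264 and 249.6 CPM, a call lost without spleen replicate 2 or 3. Emcn, endomucin of veins and capillaries, was at 1.75, 1.34 and 0.594 against 10.9, 11.5 and 10.5 (log2 -3.16 ± 0.34).

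Among immune programmes, inflammatory chemokines stood higher in node. Of 22 inflammatory cytokines and chemokines, 11 were called in node and none in spleen, and 7 without node replicate 3. The monocyte attractant Ccl12 was at 0.765, 1.24 and 0.892 CPM in spleen against 26.4, 32.4 and 32.9 in node (log2 -4.95 ± 0.24). Its relative Ccl8 was at 6.89, 11.1 and 5.65 against 59.3, 223 and 119 (log2 -4.08 ± 0.52). Ccl9 was at 11.4, 11.1 and 12.9 CPM in spleen against 176, 93.5 and 298 (log2 -4.01 ± 0.42, adjusted p = 0.000797), and Ccl22, a dendritic cell product that draws regulatory T cells, at 9.95, 7.07 and 8.32 against 68, 24.6 and 71.1 (log2 -2.70 ± 0.40). Beside 9 CC chemokines, the 11 held only Nos2 and Ptgs2, enzymes that make nitric oxide and prostaglandins. Tnf was not called at 6.89, 9.17 and 6.24 against 13.4, 9.86 and 11.1 CPM, nor was Il1b at 23.4, 31.3 and 46.5 against 8.93, 34.6 and 15 CPM.

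The type I interferon response, made of genes that STAT and IRF factors switch on, was higher in node for 14 of 25 genes, none in spleen (median log2 -1.15). Ifit2 was at 32.6, 38.9 and 43.8 CPM in spleen and 205, 112 and 173 in node (log2 -2.09 ± 0.24, adjusted p = 0.000871), and the antiviral GTPase Mx1 at 25, 38.9 and 38 against 167, 69.4 and 142 (log2 -1.89 ± 0.33). Zbp1, a sensor of nucleic acid, stood at 45.9, 56 and 62 CPM against 148, 161 and 110.0 (log2 -1.35 ± 0.19). Not all of the list followed: Rsad2 was at 85.4, 366 and 285 against 106, 55.2 and 99.1 CPM and Isg15 at 34.2, 146 and 102 against 61.3, 38.8 and 44.4, with positive, uncalled differences. Spleen replicate 1 was the lowest spleen for Ifit2, Mx1, Rsad2 and Isg15. The node count was 16 with the other spleens, and 6 without node replicate 1 or spleen replicate 3, 8 without node replicate 3 or spleen replicate 1 and 4 without spleen replicate 2.

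The promoters were also searched for TTTCNNTTTC, the core of the interferon-stimulated response element, on both strands. Of the 14 called genes, 9 had a promoter and 4 (44.4%) held it, against 3.99% of all promoters and 3.91% of those of tested genes. Windows of Ifit1 and Ifit3, 2 of the 4, are shown for their sequence, with 1 match in capitals. The call of Ifit1 was lost without node replicate 1 or 3 or spleen replicate 2 or 3, and that of Ifit3 without spleen replicate 1, 2 or 3. Each promoter holds a second match, in lower case within the same window.
Ifit1 (chr19:34640740-34640839, + strand): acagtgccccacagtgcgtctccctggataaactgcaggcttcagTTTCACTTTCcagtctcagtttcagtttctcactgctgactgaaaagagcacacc
Ifit3 (chr19:34583328-34583427, + strand): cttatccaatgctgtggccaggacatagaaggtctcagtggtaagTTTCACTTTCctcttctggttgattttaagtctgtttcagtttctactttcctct

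Complement genes were called higher in node for 11 of 19 members and in spleen for 2. Their median organ log2 in the fit of all 12 libraries was -1.16 in DKO and -0.23 in DKO/hA-I, so the size of this lean rests on the node labels. C3, the central component, was at 1431, 1338 and 1270 CPM in spleen and 4265, 3651 and 5352 in node (log2 -1.72 ± 0.18, adjusted p = 0.000562), and Cfb, of the alternative pathway, at 176, 165 and 172 against 482, 704 and 487 (log2 -1.70 ± 0.18). C3ar1, the receptor for the C3a fragment on myeloid cells, was at 1.97, 1.53 and 1.49 against 104, 41 and 219.6 CPM (log2 -6.20 ± 0.68). The terminal components split, with C7 at 2.51, 1.72 and 1.49 against 64.2, 74.1 and 87.1 (log2 -5.30 ± 0.24) and C6, a marker of red pulp macrophages, at 108, 99.4 and 104 against 2.25, 11.9 and 4.39 (log2 4.17 ± 0.51, adjusted p = 0.00157). The node count was 7 without node replicate 3, spleen replicate 1, spleen replicate 2 or spleen replicate 3, and the spleen count 1 without node replicate 1, node replicate 3, spleen replicate 2 or spleen replicate 3.

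Lymphocyte markers were called in some lists and not in others, beside 8.26% of all genes in spleen and 7.37% in node. Of 15 B cell markers edgeR called 0, with 2 at an unadjusted p under 0.05, while DESeq2 called 1 and limma voom 0. Without node replicate 1 edgeR called 2 in spleen, and without node replicate 2 it called 1 in node. Cd79a, a chain of the B cell receptor, was at 524, 553 and 508 CPM against 698, 455 and 421. Marginal zone B cells, which the spleen holds at the edge of its follicles, had 5 of 12 markers higher in spleen (3 without node replicate 3 or spleen replicate 3) and 2 in node (0 with limma voom), such as the Notch target Dtx1 at 224, 198 and 191 against 62.5, 69.9 and 38 CPM (log2 1.85 ± 0.23, adjusted p = 0.00125) and Cd1d1 at 61.5, 62.3 and 60.5 against 28.6, 18.4 and 25 (log2 1.35 ± 0.18). All 20 T cell markers had negative log2 fold changes (median -0.50), and 4 were called higher in node. That count was 1 without node replicate 1, node replicate 3 or spleen replicate 2, 12 without node replicate 2 and 0 without spleen replicate 3, and 7 with the spleens labelled DKO/hA-I. Il7r, the survival receptor of resting T cells, was at 115, 45.7 and 61.4 CPM against 307, 182 and 378 (log2 -1.97 ± 0.39), lost without spleen replicate 3, and Cd3e at 62, 41.7 and 41.9 against 69.5, 46.1 and 61.8 was not called. Of regulatory T cell markers 5 of 12 were higher in node and 1 in spleen, among them Il2ra at 17.1, 11.8 and 12.7 against 35.6, 26.2 and 39.6 CPM (log2 -1.29 ± 0.22), while Foxp3 itself was not called at 29.8, 21.9 and 22.4 against 41.1, 25.9 and 47. The node count was 3 without node replicate 1, 8 without node replicate 2 and 1 without node replicate 3, spleen replicate 2 or spleen replicate 3.

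Of 18 natural killer genes 5 were higher in spleen and 2 in node (median log2 -0.13). The 2 in node were Nkg7 (log2 -0.64 ± 0.18) and Cma1 (log2 -4.18 ± 0.26), which the mast cell and basophil list also holds. Towards spleen were Gzma, granzyme A, at 18.5, 18 and 17.7 CPM against 2.17, 2.84 and 0.929 (log2 3.25 ± 0.34, adjusted p = 0.000612) and the activating receptor Ncr1 at 9.95, 11.6 and 14.1 against 3.73, 5.02 and 5.32 (log2 1.34 ± 0.24). Perforin, Prf1, was not called at 21.6, 17.2 and 19.6 against 21.2, 13.7 and 18.7. Genes of innate lymphoid and gamma delta T cells were higher in node for 4 of 9, including Cd163l1, a receptor of gamma delta T cells, at 2.73, 3.25 and 2.38 against 25.1, 14.4 and 18.9 CPM (log2 -2.80 ± 0.27), and the count was 2 without node replicate 3 or spleen replicate 3. Of mast cell proteases, Mcpt4 was at 0.656, 0.191 and 0.594 CPM in spleen and 23.6, 31.1 and 17.1 in node (log2 -5.61 ± 0.41, adjusted p = 0.000144) and Cpa3 at 1.53, 0.955 and 0.991 against 13.5, 20.6 and 15.8 (log2 -3.83 ± 0.29). Prss34, a basophil protease, was in spleen at 3.94, 3.44 and 3.27 CPM against 0.347, 0.334 and 0.169 (log2 3.63 ± 0.37). The natural killer node count of 2 was 1 without node replicate 1, node replicate 3, spleen replicate 2 or spleen replicate 3 and 5 without node replicate 2. The mast cell and basophil list gave 3 members to spleen and 5 to node of 10, with the same counts in every leave-out of 1 library.

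Dendritic cells and monocytes also held members of both kinds. Among conventional dendritic cell genes 4 of 16 were higher in node (7 without node replicate 2), such as Fscn1 of migrated cells at 68.9, 76.4 and 65.6 against 206, 106 and 188 CPM (log2 -1.25 ± 0.24). Another 2 were higher in spleen, including the lineage factor Zbtb46 at 30.9, 29 and 30.1 against 14.5, 10.2 and 15.7 (log2 1.14 ± 0.19, adjusted p = 0.00468). The integrin Itgax, CD11c, which lipid-laden macrophages carry too, was not called at 171, 164 and 156 against 526, 143 and 795 CPM. Of 12 plasmacytoid cell markers 3 were higher in spleen and 1 in node. Siglech was at 32.1, 35.2 and 46.3 CPM in spleen against 15.3, 20.9 and 12.4 (log2 1.24 ± 0.23). Bst2 was higher in node (log2 -0.84 ± 0.22), a call lost without any one library other than node replicate 2. Treml4, of red pulp macrophages and patrolling monocytes, was at 97.3, 114 and 110.1 against 12.4, 15.4 and 10.4 (log2 3.09 ± 0.18, adjusted p = 5.90e-05), and Ccr2, of inflammatory monocytes, at 44.9, 72.5 and 47.8 against 104, 130.1 and 191 (log2 -1.36 ± 0.27), lost without spleen replicate 3 and, at -0.67 (adjusted p = 0.146), with the spleens labelled DKO/hA-I. Of 14 listed genes of MHC class II presentation 3 were called in node, a count that was 9 without node replicate 2 and 1 without any one of the other libraries. The 3 were Lgmn, Ifi30 and Ctss, which the lipid-laden macrophage list also holds, so no gene of a class II chain was called. The chain gene H2-Aa was at 1339, 1397 and 1254 against 2819, 1425 and 3414 CPM (adjusted p = 0.0658).

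Several programmes differed most between node replicate 2 and the other nodes. Of 15 plasma cell markers edgeR called 0, with 2 at an unadjusted p under 0.05, and DESeq2 called 2 and limma voom 0. Xbp1, the secretory factor, was at 351, 255 and 292 CPM in the spleens and 189.6, 1655 and 255 in the nodes, and the list's sums were 6088, 4888 and 5684 against 2524, 23499 and 3518 CPM. Without node replicate 2, 6 markers were called higher in spleen and 1 in node, and without node replicate 1, 2 in node. Slpi, an inhibitor of serine proteases that this list holds, was at 232, 11007 and 739 CPM in the nodes, a large part of the sum in node replicate 2. Among neutrophil genes, 1 of 17 was called higher in spleen, against 8.26% of all genes, a count that was 0 without node replicate 1, node replicate 3, spleen replicate 2 or spleen replicate 3 and 12 without node replicate 2. S100a8, a calprotectin chain, was at 164, 239.6 and 297 CPM against 30.6, 405 and 88.5. All 30 cell cycle genes had positive log2 fold changes (median 1.15) but edgeR called 0, with 20 at an unadjusted p under 0.05, while DESeq2 called 15 and limma voom 8. Without node replicate 2 edgeR called 29, and 4 were called without spleen replicate 1. Mki67, made by dividing cells, was at 565, 1240 and 1110 CPM in spleen and 155, 834 and 212 in node. Of 14 germinal centre genes 1 was called in node, S1pr2, a share near the 7.37% over all genes. None was called in spleen, but 6 were without node replicate 2. The skin and mammary list summed to 13.4, 77.8 and 15.4 CPM in the nodes against 13.6, 15.8 and 17.9 in the spleens, with Epcam at 6.68, 71.6 and 7.26 CPM in the nodes. Of that list Krt5, Krt14, Krt15, Krt1 and Wap were at 0 in every DKO node. The part of these cells in the other results was not tested.

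Progenitor genes also split. Kit, the stem cell factor receptor, was at 68.2, 61 and 57.5 CPM in spleen against 34.1, 24.4 and 31.9 (log2 1.04 ± 0.17, adjusted p = 0.00434), and Cd34, shared with vessels, at 22.3, 19.5 and 22.9 against 50.6, 43.6 and 67.8 (log2 -1.33 ± 0.19). Of 13 progenitor genes 4 were higher in spleen and 2 in node, with 7 without node replicate 2 for spleen and 1 without node replicate 3, spleen replicate 2 or spleen replicate 3 for node. Beside Kit, the 4 were Nkx2-3 and Meis1, which the spleen mesenchyme list also holds, and Gata2, also on the mast cell and basophil list. Genes of early lymphocytes were higher in node for 4 of 8, 2 without spleen replicate 3. Igll1, a surrogate light chain of early B cells, was at 0.109, 0.382 and 0.297 CPM against 2.86, 1.34 and 6.5 (log2 -3.73 ± 0.70, adjusted p = 0.0087). Of 20 immediate early and heat shock genes 2 were higher in spleen and 2 in node (median log2 0.079), near the 8.26% and 7.37% over all genes. Towards spleen were Nr4a1 at 72.9, 85.2 and 85.5 CPM against 39.6, 34.3 and 29.2 (log2 1.24 ± 0.16) and Dnajb1 (log2 1.53 ± 0.32). The call of Dnajb1 was lost without node replicate 3 or spleen replicate 3 and with the spleens labelled DKO/hA-I. Towards node were Egr2 (log2 -1.38 ± 0.38) and Atf3. Atf3, a stress factor that lipid-laden macrophages also make, was at 7.43, 4.96 and 6.54 CPM against 95, 20.9 and 145 (log2 -3.79 ± 0.65), lowest of the nodes in replicate 2.

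**Figure D4:**
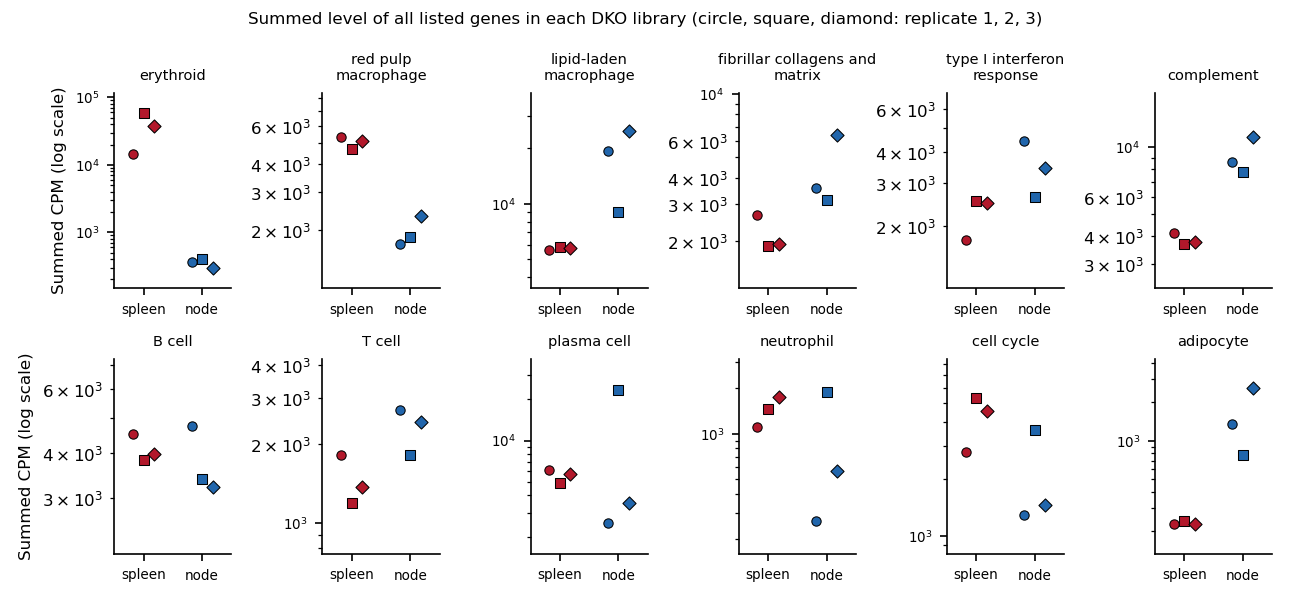
Summed CPM, scaled by library totals alone, of all genes of 12 lists in each DKO library, on log axes that differ between panels. Red is spleen, blue is node, and circles, squares and diamonds are replicates 1, 2 and 3. Node replicate 2 (blue square) lies apart from the other nodes for the plasma cell list at 23499 CPM and the neutrophil list at 1902 CPM. The listed gene Slpi makes up a large part of that plasma cell sum.

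Skeletal muscle, exocrine pancreas and nerve were measured as neighbouring tissues, beside the adipocyte list above. Skeletal muscle genes summed to 54.5, 44.5 and 49.8 CPM in the spleens and 41.6, 45.7 and 37.8 in the nodes, and of 6 tested edgeR, DESeq2 and limma voom called 0, with 1 at an unadjusted p under 0.05. Myh4 and Mb were at 0 in every DKO library of both organs. Of 15 exocrine pancreas genes, only Cela1 passed the filter, at 21.5, 42.8 and 26.2 CPM against 1.99, 3.34 and 1.77, while 3 others of the list had no count in any spleen and 9 none in any node. Nerve and Schwann cell genes summed to 353, 321 and 330.3 CPM in the spleens and 331, 256 and 287 in the nodes. Of 9 nerve and Schwann cell genes 2 were higher in spleen, Prx, whose call was lost without any one library other than node replicate 2, and Mal, which lymphocytes and epithelium also make, at 7.87, 5.54 and 6.74 CPM against 0.173, 0.502 and 0.0844 (log2 4.92 ± 0.47).

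Whether the organ difference depended on the genotype as labelled was tested in 1 fit of all 12 libraries. Of 14608 genes, 487 gave a call: the spleen minus node difference was more positive in DKO for 189 (1.29%) and more negative for 298 (2.04%), and 241 of the genes called between organs in DKO were among them. With the genotype labels of the spleens exchanged 753 genes were called, 338 of them shared with the first set in the same direction. Exchanging the node labels instead gives the same test with every sign reversed. These 338 genes would then differ in the opposite direction, so directions given for DKO rest on the node labels. Without node DKO replicate 2 the count of 487 became 1160. It was 222 without node DKO replicate 3, 190 without node DKO/hA-I replicate 2, 179 and 188 without spleen DKO replicates 2 and 3, and 225, 196 and 199 without spleen DKO/hA-I replicates 1, 2 and 3. CPM values in this comparison, list sums included, carry TMM factors over 12 libraries and differ slightly from those above.

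Many genes of the lipid-laden macrophage list leaned further to node in DKO as labelled. Its median log2 was -2.14 in DKO and -0.78 in DKO/hA-I. In edgeR 15 of 25 genes were called more negative, against 2.04% of all genes. That count was 18 with the spleen labels exchanged, 19 with DESeq2 and 2 with limma voom. Mmp12 was at 1304, 232 and 1895 CPM in DKO nodes and 59.5, 71.8 and 92.1 in DKO/hA-I nodes, and Spp1 at 158, 108 and 340.3 against 9.39, 5.79 and 4.73. Spp1 in the spleens was at 2.87, 4.2 and 3.3 CPM in those labelled DKO and 1.94, 2.21 and 3.53 in those labelled DKO/hA-I. The nodes of the genotypes did not overlap for Spp1 and Mmp12, and the spleens overlapped for Spp1. The difference of organ differences was -4.73 ± 0.83 (log2, adjusted p = 0.0106) for Mmp12 and -4.49 ± 0.64 (adjusted p = 0.00365) for Spp1. Matrix followed in part: 8 of 28 fibrillar matrix, 7 of 16 protease and TIMP and 9 of 19 complement genes were called more negative in DKO. Over all genes that share was 2.04%. DESeq2 called 17, 12 and 12 of these lists and limma voom 4, 4 and 5. Their median organ log2 was -1.28, -1.48 and -1.16 in DKO and 0.005, -0.12 and -0.23 in DKO/hA-I. The fibrillar matrix list summed to 1493 to 1940 CPM in DKO/hA-I nodes, below the 1959 to 2626 CPM of the DKO spleens. How far these 3 lists leaned to node therefore rests on the node labels.

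Fat-related genes went the opposite way. Of 18 fatty acid synthesis genes, 13 were called more positive in DKO, against 1.29% of all genes. The list's median organ log2 was -0.48 in DKO and -3.42 in DKO/hA-I. Fasn was at 143, 254 and 242 CPM in DKO nodes and 4818, 5221 and 1305 in DKO/hA-I nodes, a difference of 4.24 ± 0.55 (log2, adjusted p = 0.00292). Adipocyte markers moved with this: 8 of 21 were called (17 with DESeq2 and 4 with limma voom), their summed level ran from 773 to 2707 CPM in DKO nodes and from 1777 to 5237 in DKO/hA-I nodes, and Adipoq was at 1.53, 4.22 and 2.03 against 89.2, 175 and 40.5 CPM. No adipocyte marker was at 0 in every node of either genotype, and the part of fat tissue in these differences was not tested. Marco, the marginal zone scavenger receptor, was at 33.4, 22.4 and 13.1 CPM in DKO nodes against 406, 264 and 185, and 254, 221 and 261 against 171, 206 and 215 in the spleens. For the erythroid list edgeR called 0 genes, with 8 at an unadjusted p under 0.05, DESeq2 1 and limma voom 0. For the spleen mesenchyme and high endothelial venule lists each tool called 0, with 1 gene each at an unadjusted p under 0.05 in edgeR. For the type I interferon list each tool called 0, with 0 at an unadjusted p under 0.05, and a median organ log2 of -1.18 in DKO stood beside -1.07 in DKO/hA-I.

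**Figure D5:**
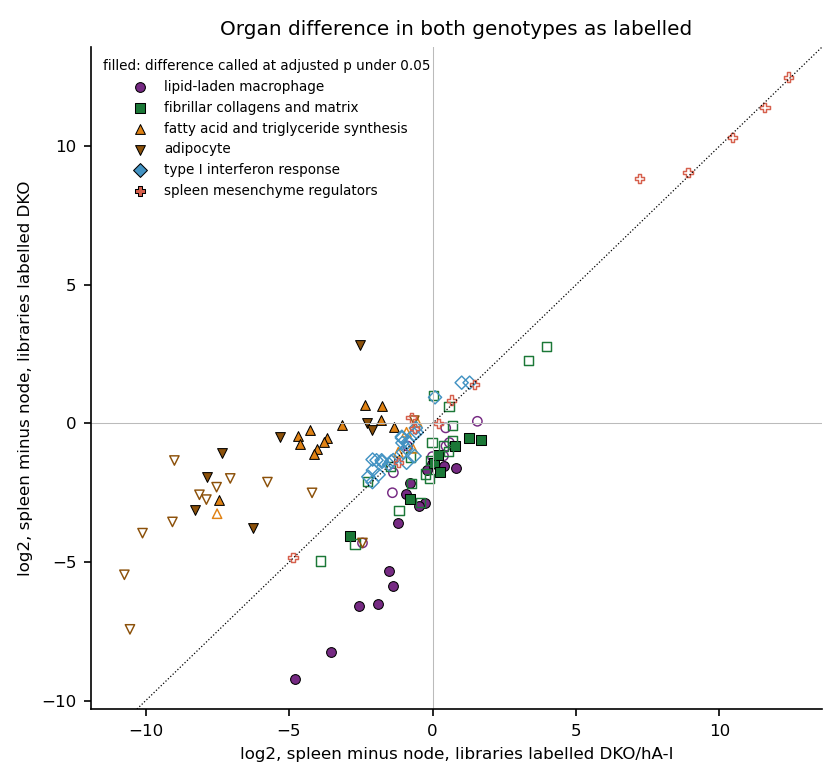
Organ difference (log2, spleen minus node) in libraries labelled DKO (y axis) against DKO/hA-I (x axis) for 6 lists, given as a description since both come from the same fit; filled symbols mark genes whose organ difference differed between the genotypes at an adjusted p under 0.05 and the dotted line marks equal differences. Lipid-laden macrophage genes (15 filled) lie below the line and fatty acid synthesis genes (13 filled) above it.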

How the data were processed

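Poly(A) RNA of spleen and axillary lymph node was extracted on NucleoSpin columns, prepared with an Illumina RNA-Seq kit and sequenced on a Genome Analyzer IIx, per the labels' protocols. The deposited tables hold raw read counts per gene symbol and library. Trimmomatic, TopHat, Bowtie and Cuffdiff with the mouse build GRCm38 (mm10) are named in the submitters' processing notes; the counter, its strand setting and its treatment of reads shared by near-identical or overlapping genes were not given in any source used here, so such genes (globins, tryptases, Ifit and antisense pairs) are uncertain. The tables were joined on 23284 symbols, of which 20723 matched the RefSeq table (GRCm38.p6) used for coordinates and promoters.

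Genes were kept by filterByExpr (minimum count 10, minimum total 15), scaled by TMM and tested with edgeR's quasi-likelihood test (edgeR 4.0.16, limma 3.58.1 and R 4.3.3) with Benjamini-Hochberg adjustment over all genes tested, called at an adjusted p under 0.05. The organ fit used the 6 DKO libraries, and the test of the difference between genotypes used all 12. The code was tested on simulated data. Alternatives were DESeq2 1.42.0, limma voom, other scalings and filters, a replicate block, other spleens and leaving out each library. Replicate numbers did not pair the organs, since animal codes differ. After each gene's mean in its organ was subtracted, the log levels of same-numbered libraries correlated at 0.043, 0.0083 and -0.073. At the lowest and highest depth, 3 counts equal 0.507 and 0.251 CPM, which covers counting error only. Where a group had no count, the fold is a bound against 3 counts over the group, and with 1 to 3 counts a count ratio with its 95% exact interval, again counting error only.

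The members and the 50 gene lists were chosen with earlier results of these data known. Named genes are the 15 of largest change in each direction (mean of at least 5 CPM, groups not overlapping), up to 5 called members of each list and 2 in the other direction (at least 1 CPM), or the 2 most abundant where fewer than 2 were called, and for the difference the 8 of lowest p in each direction plus up to 4 lipid genes per list. Chosen outside this rule, after their values were seen, were Adipoq, Axl, Ccl19, Cd36, Cd3e, Cd5l, Col1a1, Ctsb, Ctsd, Ctsk, Fasn between organs, Flt4, Foxp3, Fth1, Ftl1, H2-Aa, Hspa1a, Idi1, Ifit1, Il1b, Isg15, Itgax, Lipa and Lrp1 between organs, Mertk, Mmp14, Nr1h3, Plin2, Prf1, Rsad2, Sqle, Thbs1, Timp2, Tnf, Tyrobp, Vwf, Xbp1 and Zbp1. Alas2 and, as members with no count, Cidea, Adig, Myh4, Mb, Wap and keratins were also named outside it. A few members of the lists are not reported here. Figures were drawn with matplotlib 3.10.9.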

Additional observations from a re-analysis of the deposited data

Results flagged for a closer look

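The spleen minus node difference depended on the genotype as labelled for 487 genes, by a test of the difference itself over 12 libraries (edgeR, adjusted p under 0.05). The values below are the difference in DKO minus that in DKO/hA-I, in log2, and each was singled out by that test. Because Rpl31-ps12 goes against the labels across organs, the value with the spleen labels exchanged is given where its call was lost. If the node labels are the exchanged ones, the values with exchanged spleen labels apply with the opposite sign.

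More negative in DKO were macrophage and lipid genes. Mmp12 differed by -4.73 ± 0.83 and Spp1 by -4.49 ± 0.64. Lgals3, the lectin galectin-3, differed by -2.63 ± 0.52, Cd68, a lysosomal macrophage marker, by -1.93 ± 0.47, and Lipa, which hydrolyses cholesteryl esters, by -1.90 ± 0.42. Clec7a, the receptor dectin-1, differed by -2.51 ± 0.44, and with the labels exchanged by -1.56 (adjusted p = 0.0595). For Pltp the value was -2.44 ± 0.42, and for Apod -2.45 ± 0.55, which with the labels exchanged was -1.76 (adjusted p = 0.0845). Lrp1, which was not called between the organs in DKO, differed by -2.13 ± 0.50, with DKO nodes at 747, 294 and 1104 CPM and DKO/hA-I nodes at 157, 181 and 104. Ms4a6d differed by -2.25 ± 0.31, the nucleic acid sensor Tlr8 by -2.67 ± 0.36 and the chemokine receptor Ccr1 by -2.80 ± 0.35. Frzb, a Wnt antagonist, differed by -3.51 ± 0.44 and was higher in spleen in both genotypes, with an organ difference of 2.04 in DKO and 5.55 in DKO/hA-I.

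More positive in DKO were Marco at 3.95 ± 0.44 and fat-related genes. Fasn differed by 4.24 ± 0.55, Scd1 by 3.08 ± 0.36, and Ucp3, an uncoupling protein of muscle and brown fat, by 5.06 ± 0.55. Ceacam2, an adhesion molecule, differed by 2.90 ± 0.29, and with the labels exchanged by 1.07 (adjusted p = 0.0527). Adipocyte markers moved with these genes, and their part was not tested.

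Several of these calls needed nearly every library. The calls of Lrp1 and Cd68 were lost without any one library other than node DKO replicate 2. That of Lipa was lost without any one library other than node DKO replicates 1 and 2 and node DKO/hA-I replicate 1, and that of Apod without any one other than these and node DKO/hA-I replicate 2. Lgals3 lost its call without node DKO replicate 3, node DKO/hA-I replicate 2, spleen DKO replicate 2 or 3, or spleen DKO/hA-I replicate 2. With limma voom the calls of Mmp12, Apod, Lipa, Lrp1, Cd68 and Lgals3 were lost, and with a replicate block or no filter on low counts those of Lrp1 and Cd68. The other genes named here kept their call in each leave-out of 1 library.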

How the results depend on the processing

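The organ count of 2204 genes was between 1639 and 2697 under DESeq2, limma voom, other scalings, other filters, the spleens labelled DKO/hA-I and the call with at least 2-fold, and 3325 in 1 fit of all 12 libraries, which has more samples. Leaving out single libraries gave 1306 to 3767. The count of 487 genes for the difference between genotypes was 973 with DESeq2, 242 with limma voom and 753 with the spleen labels exchanged, and 179 to 1160 when single libraries were left out; the cause was not tested. With the replicate number as a block the organ count was 2091 and the difference count 299, although the numbers do not pair the organs. Over the 268 genes named between organs and their alternatives, 3675 values stayed on their side of the threshold, 252 lost the call and 53 gained it. None changed sign with a call. Of the values for 30 genes named for the difference, 528 stayed and 71 lost the call, 7 of them with limma voom. Between organs, limma voom also ended the calls of Sfrp5, Mmp13 and Slc2a4, the replicate block those of Prox1 and Prx, and the fit of all 12 libraries those of Prx, Adipoq and Ifit1. At 5911835 to 11950825 counts, levels under 0.251 to 0.507 CPM are not told from absence.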
